A study of Mus musculus with 20 samples.

Results

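A set of 40 genes of the cell division cycle was followed in keratinocytes sorted from mouse skin. They were taken by gene symbol from a table of raw counts with 25719 genes, and all 40 were found and passed the filter on low counts that left 12424 genes for testing. By role, 14 of them act in DNA replication (Mcm2 to Mcm7, Pcna, Rrm1, Rrm2, Tyms, Cdc6, Cdt1, Gins2 and Ung), 20 in mitosis or its control, and 6 in G1 and the entry into S phase (Ccnd1, Ccnd2, Ccnd3, Ccne1, Ccne2 and E2f1).

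The mice carried floxed Cyp11b1 alleles (Cyp11b1 L2/L2), the gene for the enzyme that makes corticosterone in the last step of its synthesis. Knockout mice (cKO) also carried K14-CreERTam, a tamoxifen-activated Cre recombinase under the keratin 14 promoter, which is active in basal keratinocytes. Controls were Cre-negative floxed littermates, so a Cre transgene and the deletion always came together. All 20 mice received tamoxifen on 5 consecutive days, controls included, and ages are not given in the labels. In the topical groups tamoxifen in ethanol was put on ear skin (20 µl) and on shaved back skin (100 µl). In the systemic groups 100 µl of tamoxifen at 10 mg/ml in oil and ethanol was injected into the peritoneum. Route therefore goes together with vehicle and shaving, which cannot be told apart from it. Keratinocytes of ear and back skin were isolated on day 6, and RNA of the sorted cells was sequenced in bulk, 1 library per mouse. There were 5 mice in each of the 4 groups: topical control (numbered 1, 3, 5, 6 and 7), topical cKO (2, 3, 4, 5 and 7), systemic control (1, 3, 4, 5 and 6) and systemic cKO (2, 4, 5, 6 and 7). Values in lists below follow that order.

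The epidermis is renewed by division of basal keratinocytes, which withdraw from the cycle as they differentiate and move up. In G1, D-type cyclins with their kinases phosphorylate the retinoblastoma protein, and this frees E2F factors to switch on the genes for S phase. Cdc6 and Cdt1 then load the Mcm2 to Mcm7 helicase onto origins, and the helicase, the sliding clamp Pcna and the nucleotide-making enzymes Rrm1, Rrm2 and Tyms carry replication. Mitotic genes come on later, in G2, largely through a promoter element called the cell cycle genes homology region (CHR), with Cdk1 and the B-type cyclins driving entry into mitosis.

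Promoter letters known from both classes of gene are shown first, because replication and mitotic genes are set against each other below. In RefSeq promoters of build GRCm38.p6, covering 250 bases before to 50 bases after a gene's start, an entry was matched for 31 of the 40 genes. Entries were not matched for Ccna2, Aurkb, Tpx2, Kif20a, Mcm4, Gins2, Ccnd1, Ccnd2 and Ccne2. An E2F motif, taken as TTTGGCGC, TTTCCCGC, TTTCGCGC or TTTGCCGC on either strand, was in 6 of 12 replication promoters (Cdc6, Cdt1, Mcm3, Mcm5, Mcm6 and Mcm7) and in 1 of 16 mitotic promoters (Cdk1), against 2.26% of all 32851 promoters. One such stretch of 30 bases per gene follows for 5 replication genes and Cdk1, 5′ to 3′ along the gene, with the E2F letters in capitals. TTTGGCGC and TTTCGCGC can overlap on opposite strands, as they do at the Mcm5 site.
Mcm3 (chr1:20820263-20820292, minus strand): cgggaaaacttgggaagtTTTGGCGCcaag
Mcm5 (chr8:75109345-75109374, plus strand): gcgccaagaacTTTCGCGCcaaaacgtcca
Mcm6 (chr1:128359734-128359763, minus strand): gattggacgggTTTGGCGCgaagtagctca
Mcm7 (chr5:138171849-138171878, minus strand): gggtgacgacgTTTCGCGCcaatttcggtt
Cdt1 (chr8:122568035-122568064, plus strand): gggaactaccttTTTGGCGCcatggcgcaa
Cdk1 (chr10:69353025-69353054, minus strand): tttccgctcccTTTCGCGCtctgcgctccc

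The CHR letters TTTGAA, on either strand, were in 12 of 16 mitotic promoters and in 1 of 12 replication promoters (Mcm2), against 17.9% of all promoters. The stretches below show them in capitals for Cdk1, Mcm2 and 3 mitotic genes, and TTCAAA in Top2a is TTTGAA read on the other strand.
Cdk1 (chr10:69352966-69352995, minus strand): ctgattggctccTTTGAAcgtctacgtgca
Cdk1 (chr10:69352910-69352939, minus strand): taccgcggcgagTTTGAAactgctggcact
Mcm2 (chr6:88898833-88898862, minus strand): agggctcagcctTTTGAAagctgtgggcgg
Mki67 (chr7:135716460-135716489, minus strand): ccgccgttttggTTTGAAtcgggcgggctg
Top2a (chr11:99024195-99024224, minus strand): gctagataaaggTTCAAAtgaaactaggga
Cdc20 (chr4:118437344-118437373, minus strand): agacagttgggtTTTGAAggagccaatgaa

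Cdk1 held both kinds of letters, so the 250 bases before its start are given whole. Capitals mark the E2F letters, both CHR matches and 3 CCAAT boxes, which read ATTGG on this strand. CCAAT was in 15 of 16 mitotic promoters, 8 of 12 replication promoters and 37.4% of all promoters. A match of letters is a description and does not show that a factor was bound in these cells.
Cdk1 promoter (chr10:69352913-69353162, minus strand): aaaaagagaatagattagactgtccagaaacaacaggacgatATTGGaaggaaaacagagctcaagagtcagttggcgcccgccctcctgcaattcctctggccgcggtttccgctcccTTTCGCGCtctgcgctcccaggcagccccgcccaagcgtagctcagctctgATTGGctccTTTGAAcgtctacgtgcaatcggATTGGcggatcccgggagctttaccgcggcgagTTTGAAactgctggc

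Libraries held 11588851 to 50082771 counts. Keratinocyte markers were high in every library: Krt14 was at 30507 to 60136 CPM (a gene's reads on a per-million scale of the library) and Krt5 at 17012 to 27120 CPM, while of 7 immune cell markers the leukocyte gene Ptprc was at 0 in 10 libraries and the antigen presentation gene Cd74 was at 5.46 to 30.3 CPM, in none at 0. Cyp11b1 itself had at most 6 reads in a library (9, 7, 2 and 4 reads in all in the topical control, topical cKO, systemic control and systemic cKO groups), so the deletion could not be checked at this depth. Some libraries stood apart. Satellite-like transcripts summed to at least 77.3 CPM in all 5 systemic controls and systemic cKO 2, and to at most 41.3 CPM in the 14 others. The former were uneven: systemic control 1 was at 77.3 CPM and the rest of them at 1886 to 36415 CPM. Among the genes described here, systemic control 5 stood apart from its group, with replication genes 1.21 above mitotic genes in mean log2(CPM + 1) against 0.54 to 0.64 in the other 4. Several values that turned or moved widely without it are given both ways below.

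All 40 genes were detected in every library, at very different levels. Per kilobase of exon, and averaged over the 20 libraries, Ccnd2 (cyclin D2) was highest at 53.5 CPM per kb, followed by Pcna (15.7), the anaphase activator Cdc20 (14.4) and the ubiquitin-conjugating enzyme Ube2c (12.8). Cdc6 was lowest at 0.18 CPM per kb, on 3 to 50 reads per library, and Mki67, which codes for the proliferation marker Ki-67, was 33rd of the 40 at 0.82 CPM per kb. In GENCODE vM21 (GRCm38), the genes called below lie as follows: Mcm2 at chr6:88883474-88898780, Mcm3 at chr1:20802968-20820312, Mcm5 at chr8:75109569-75128439, Mcm7 at chr5:138164583-138172422, Pcna at chr2:132249162-132253314, Ung at chr5:114130386-114139323, Cdk1 at chr10:69335146-69352938 and E2f1 at chr2:154559407-154569892. Ung and Mcm5 lie on the plus strand and the other 6 on the minus strand. Exons of 12 of the 40 genes overlap another annotated gene, Mcm7 with Ap4m1, Cops6 and the microRNA genes Mir25 and Mir93 among them. Whether strand was used in counting is not given in the sources used here, so reads there may be shared or lost.

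**Figure D1:**
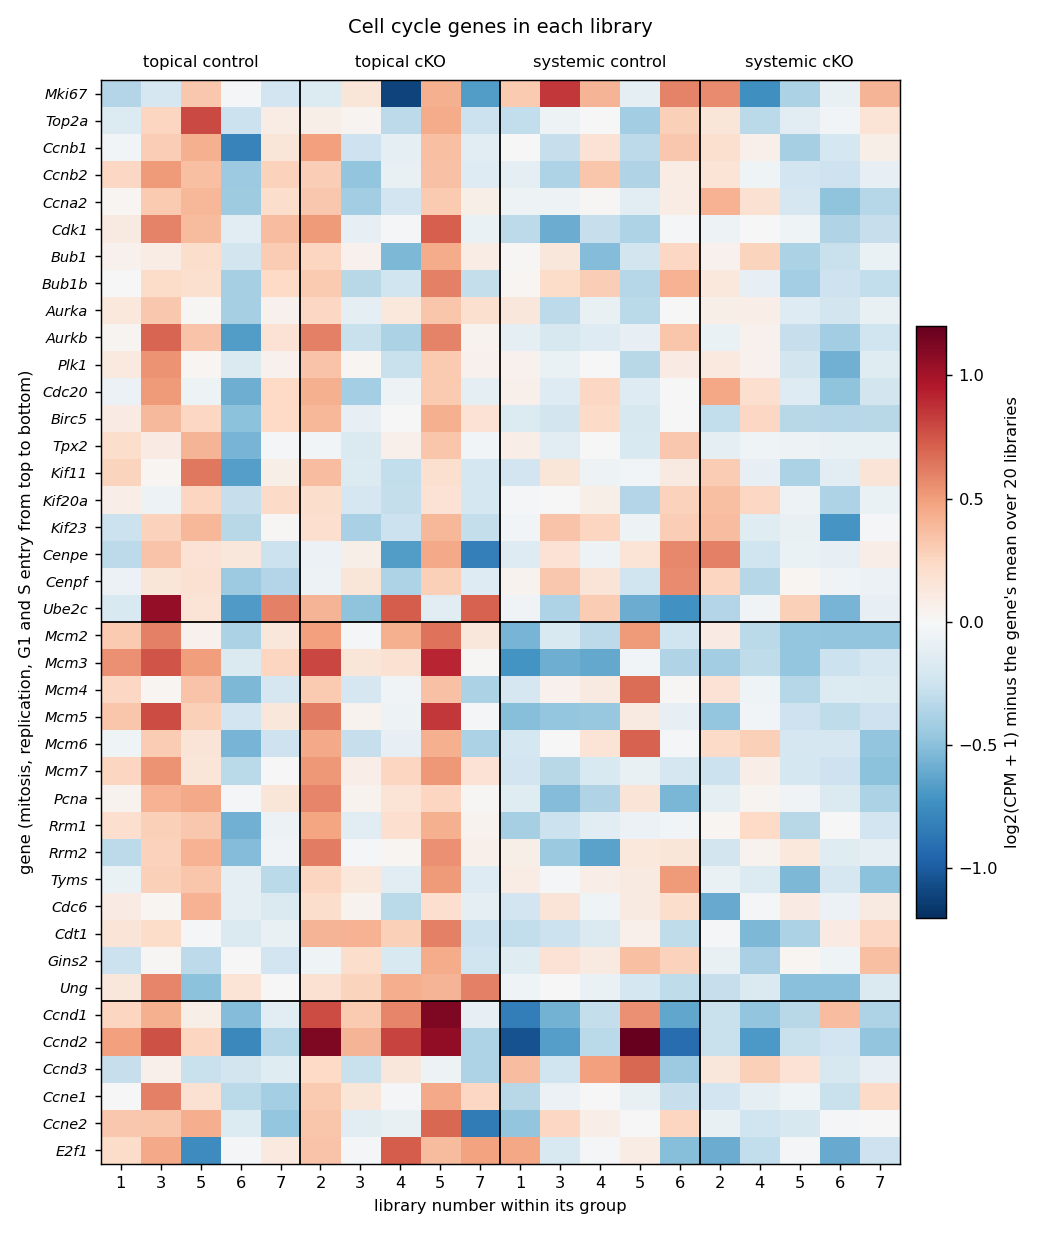
Levels of the 40 cell cycle genes (rows) in the 20 libraries (columns, numbered within each group) as log2(CPM + 1) minus the gene's mean over 20 libraries, with black lines between groups and between mitosis, replication, and G1 and S entry genes. Mcm3 is at or below its mean in all 10 systemic libraries, and Ccnd2 in systemic control 5 (1195 CPM) is the darkest red of its row.

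Within groups, levels of the cell cycle genes varied together from mouse to mouse. The median Pearson r of deviations from the group means over 20 libraries was 0.61 over the 190 pairs of mitotic genes and 0.52 over the 91 pairs of replication genes. It was 0.38 over the 280 pairs of a mitotic with a replication gene. Without systemic control 5, over 19 libraries, these medians were 0.60, 0.46 and 0.50, so the lower value between the classes rested on that library. Ccnd1 and Ccnd2 had r = 0.92 with each other (0.88 without it). Ccnd2 had a median r of 0.61 with the replication genes (0.64 without it) and of 0.16 with the mitotic genes, which became 0.45 without it. These values are a description, since all genes of a library share its depth and its sort.

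With topical tamoxifen, none of the 40 genes differed between cKO and control at an adjusted p under 0.05. Across all genes 0.129% were called in this comparison (edgeR quasi-likelihood test, Benjamini-Hochberg adjustment over 12424 genes). At an unadjusted p under 0.05, 1 of the 40 was counted, against 5.66% of all genes, and DESeq2's Wald test also called 0 of the 40. The median log2 fold change was −0.02 for mitotic genes, 0.14 for replication genes and 0.35 for G1 and S entry genes, against 0.02 for all genes tested. Leaving out 1 library at a time moved these medians from −0.16 to 0.04, from 0.05 to 0.22 and from 0.26 to 0.57, and the mitotic one changed sign in 5 of the 10 cases. Of the 14 replication genes, 13 lay above 0 without any passing the test, with Cdc6 the exception at −0.05.

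Ccnd1, the cyclin D1 gene, had the smallest p of the 40 in the topical comparison. It was at 36.1, 40.5, 31.5, 20.6 and 27.2 CPM in topical controls and at 52.0, 37.5, 45.5, 66.2 and 27.9 CPM in topical cKO mice. In 3 of the 5 cKO libraries the level was above every control, and the groups overlapped. The log2 difference was 0.56 with a standard error of 0.26 and a 95% interval of 0.01 to 1.11 (edgeR, unadjusted p = 0.0436, adjusted p = 0.863). Cdt1, the licensing factor, came next at a log2 difference of 0.34 (SE 0.18, adjusted p = 0.92), with 7.87, 8.26, 6.89, 6.07 and 6.5 CPM in controls and 9.6, 9.63, 8.69, 11.1 and 5.66 CPM in cKO mice. The level was above all controls in 4 of those 5 cKO libraries and below all of them in topical cKO 7. For the mitotic genes the 95% intervals were of similar width: −0.71 to 0.56 for Mki67 and −0.58 to 0.24 for Top2a, the topoisomerase that untangles chromosomes before mitosis.

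Summed suprabasal markers (Krt1, Krt10, Sbsn and Krtdap) moved with the topical comparison. They were at 25149 to 36770 CPM in topical controls and at 13741 to 24036 CPM in topical cKO mice, which did not overlap, although 0 of these 4 genes passed the test. Basal markers overlapped. Their part in the values above was not tested. In bulk samples, fewer cycling cells and less RNA of a gene per cycling cell cannot be told apart.

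With injected tamoxifen, again none of the 40 genes passed the test between cKO and control, where 1.89% of all genes were called. One of the 40 had an unadjusted p under 0.05, against 15.3% of all genes, and DESeq2 called 0. The medians were −0.05 for mitotic, −0.10 for replication and −0.20 for G1 and S entry genes, against 0.00 for all genes to 2 decimals. Below 0 were 15 of the 20 mitotic and 8 of the 14 replication genes. The signs of the replication and the G1 and S entry medians rested on systemic control 5: without it they were 0.01 for replication and 0.06 for G1 and S entry genes, with 6 of the 14 replication genes below 0. The mitotic median was then −0.12, and it was 0.01 without systemic control 6. Leaving out 1 library at a time moved the mitotic and the replication median from −0.12 to 0.01 each. The G1 and S entry median moved from −0.22 to 0.06. Without systemic cKO 2 the replication median was −0.02.

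The satellite-like transcripts also divided these groups, with 5 of 5 controls and 1 of 5 cKO libraries above 50 CPM. With that division as a covariate, the difference comes from systemic cKO 2 alone against the controls. That fit rests on 1 cKO library, so the part of the division in the genotype values was not tested.

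Tyms, the thymidylate synthase gene, stood nearest to a call. It was at 13.7, 12.6, 13.6, 13.9 and 18.7 CPM in systemic controls and at 12.1, 11.3, 8.5, 11.0 and 8.82 CPM in systemic cKO mice. All 5 cKO libraries lay below all 5 controls, a separation in this direction that 0.918% of all genes showed. The log2 difference was −0.49 (SE 0.17, 95% interval −0.85 to −0.14; edgeR adjusted p = 0.136). The topical groups overlapped for Tyms, at 12.1, 15.8, 16.5, 11.8 and 10.1 CPM in controls and 15.5, 14.1, 11.5, 18.7 and 11.4 CPM in cKO mice.

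The reference mitotic gene Mki67 was at 9.96, 14.9, 10.7, 7.15 and 12.3 CPM in systemic controls and at 12.1, 4.28, 5.76, 7.27 and 10.7 CPM in systemic cKO mice. In cKO mice 2 of 5 libraries were below every control, but the groups overlapped, and the difference was −0.48 on the log2 scale (SE 0.30, edgeR adjusted p = 0.474). Bub1b, a kinase-like protein of the spindle checkpoint, had a log2 difference of −0.39 (SE 0.22, adjusted p = 0.419). It was at 6.19, 7.22, 7.7, 4.58 and 8.43 CPM in systemic controls and at 6.69, 5.6, 4.32, 4.93 and 4.75 CPM in systemic cKO mice. Mitochondrial reads moved with this comparison, with a median of 3.15% of counts in systemic controls and 5.28% in systemic cKO mice. With the mitochondrial percent as a covariate, 2 of the 40 genes were called lower in systemic cKO mice, Tyms (−0.54, adjusted p = 0.0316) and Mki67 (−0.72, adjusted p = 0.034), while 10.6% of all genes were called in that fit. The satellite covariate in its place sets systemic cKO 2 alone against the controls. Its differences were −0.27 for Tyms, −0.04 for Bub1b and 0.13 for Mki67, so the sign for Mki67 turned on that library.

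For Ccnd2, 1 library set the sign of the difference. The gene was at 213, 278, 353, 1195 and 233 CPM in systemic controls and at 367, 273, 366, 376 and 318 CPM in systemic cKO mice. Systemic control 5 stood well above the other 4 of its group. The log2 difference between cKO and control was −0.42 with all libraries and 0.34 without systemic control 5, and neither passed the test. Ccnd1 was high in the same library, at 16.4, 19.9, 24.4, 44.1 and 19.1 CPM in controls and 24.7, 21.3, 23.6, 39.0 and 22.9 CPM in cKO mice, with a log2 difference of 0.09, or 0.40 without systemic control 5. The Ccnd1 difference was −0.10 without systemic cKO 6 and −0.03 without systemic control 1.

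**Figure D2:**
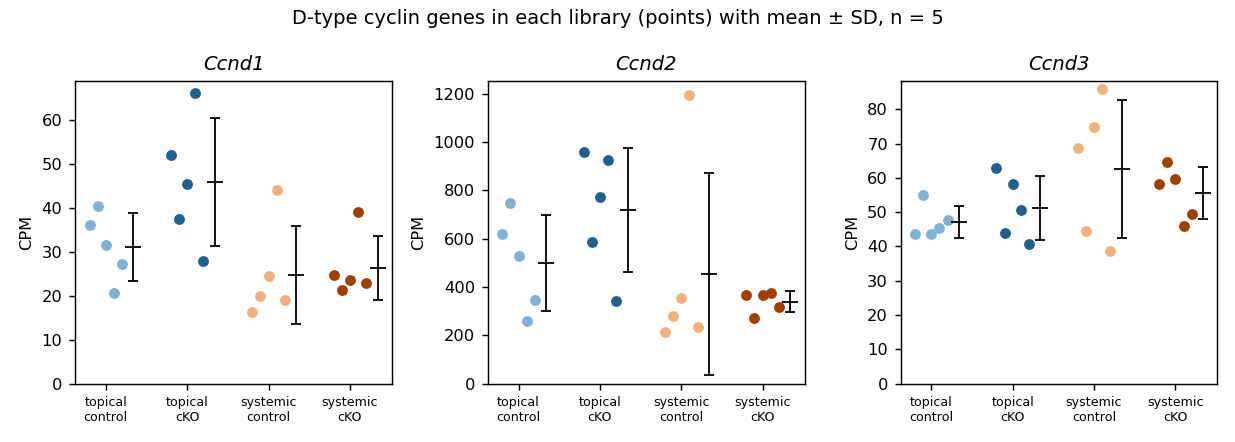
CPM of the 3 D-type cyclin genes in each library (points, in order of number) by group, with the mean and SD of 5 libraries as bars. One systemic control (number 5) lies at 1195 CPM for Ccnd2 and 44.1 CPM for Ccnd1, away from the other 4 of its group.

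The genotype difference was compared between routes by the interaction term, the systemic minus the topical difference. None of the 40 genes passed, where 0.25% of all genes did, and DESeq2 called 0 as well. An unadjusted p under 0.05 was found for 3 of the 40, against 14% of all genes: Tyms at −0.61 (SE 0.24, edgeR adjusted p = 0.233), E2f1 at −0.88 (SE 0.40, adjusted p = 0.329) and Ung at −0.50 (SE 0.24, adjusted p = 0.348). All 6 G1 and S entry genes and 12 of the 14 replication genes had a negative interaction, as did 52.8% of all genes tested. Mitotic genes were divided, with 12 of 20 below 0 and a median of −0.08. Leaving out 1 library moved that median from −0.16 to 0.03, with its sign changed in 4 of 20 cases. The medians for replication and for G1 and S entry genes were −0.23 and −0.38, and they became −0.15 and −0.17 without systemic control 5, with 10 of 14 and 6 of 6 below 0. Over all libraries left out in turn they ranged from −0.36 to −0.14 and from −0.50 to −0.17. For Mcm2 the interaction was −0.40, or −0.18 without systemic control 5. With the satellite covariate, systemic cKO 2 alone stands for the systemic cKO mice. The interaction was then 0.21 for Mki67 (−0.41 without a covariate) and 0.04 for Mcm2.

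Calls among these genes came from the comparisons by route, and all of them were lower after injection than after topical treatment. Both route comparisons use the same 4 groups as the genotype comparisons, so their values are set side by side and are not independent of those above. In controls 4 of the 40 genes were lower after injection (10% of them, where 8.16% of all genes were called lower) and 0 were higher (10.2% of all genes). The count in controls is near the background. At an unadjusted p under 0.05 the counts were 7 of 40 in controls, 5 of them lower (32.9% of all genes in either direction), and 13 of 40 in cKO mice, all lower (32.5% of the 40, and 11.3% of all genes in that direction). In cKO mice 5 of the 40 were lower (12.5% of them, where 4.02% of all genes were called lower) and 0 were higher (5.19% of all genes). Single libraries moved these counts: in controls to 1 without topical control 3 or systemic control 3 and to 2 without topical control 5 or systemic control 4. Without systemic control 6, 2 were lower (Mcm3 and Cdk1) and 1 was higher, Ccnd3, named here for that call. In cKO mice the count went to 3 without topical cKO 2 and to 2 without topical cKO 5 or systemic cKO 7. With 1 library left out, 11.7% to 20.1% of all genes were called in controls and 5.97% to 9.69% in cKO mice.

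More replication than mitotic genes were called. In controls 3 of the 14 replication genes (Mcm3, Mcm5 and Pcna) and 1 of the 20 mitotic genes (Cdk1) were lower after injection. In cKO mice the calls were 4 of 14 replication genes (Mcm2, Mcm3, Mcm7 and Ung), 0 of 20 mitotic genes and 1 of 6 G1 and S entry genes (E2f1). The median log2 difference in cKO mice was −0.42 for replication, −0.14 for mitotic and −0.64 for G1 and S entry genes, against −0.01 for all genes. All 14 replication genes and 17 of the 20 mitotic genes lay below 0 there, as did 51.5% of all genes. In controls the medians were −0.25, −0.16 and −0.12, against 0.00 for all genes to 2 decimals. Single libraries moved the control medians, from −0.29 to −0.15 for replication, from −0.28 to −0.07 for mitotic and from −0.26 to 0.01 for G1 and S entry genes, each highest without topical control 3. In cKO mice the ranges were −0.48 to −0.35, −0.22 to −0.03 and −0.72 to −0.51. For the 9 genes Mcm2 to Mcm7, Pcna, Rrm1 and Rrm2 alone, the median was −0.31 in controls and −0.37 in cKO mice, with 3 called lower in each.

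**Figure D3:**
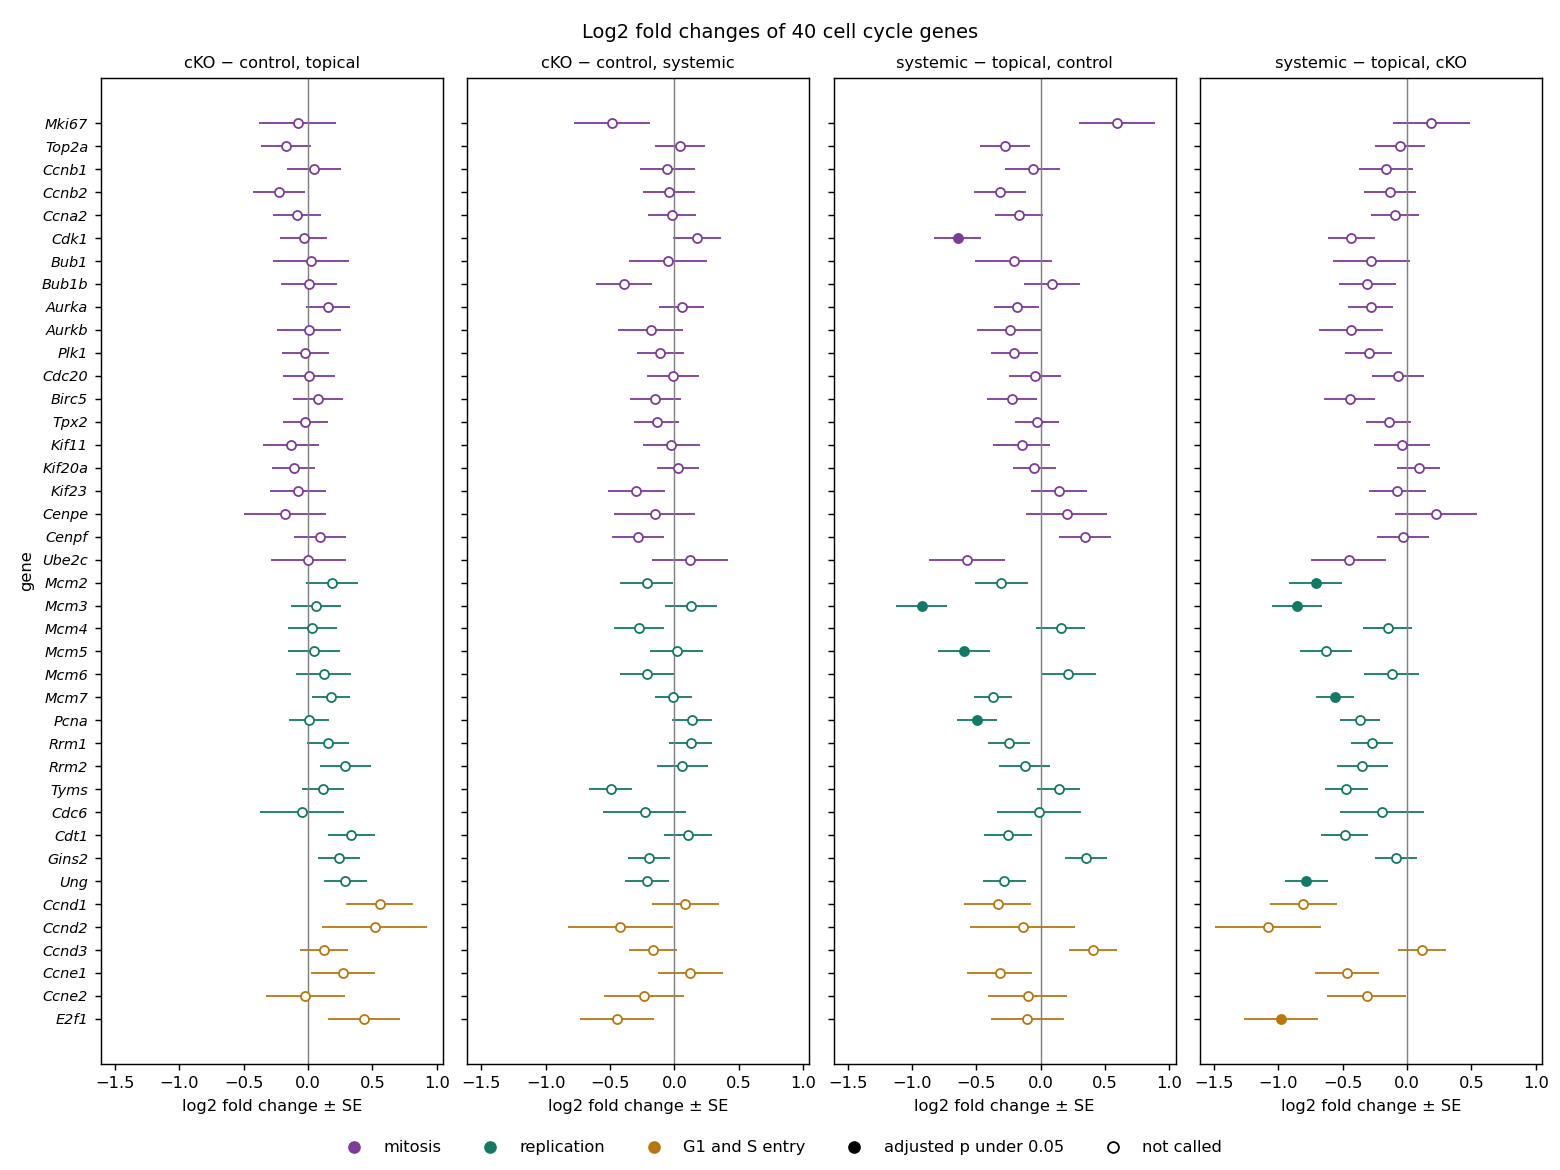
Log2 fold change (point) and standard error (line) of each gene in the 2 genotype and 2 route comparisons, coloured by role and filled where the adjusted p was under 0.05. No point is filled in the genotype panels, and the filled points of the route panels, 4 in controls and 5 in cKO mice, all lie left of 0.

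Mcm3, a subunit of the replicative helicase, was the only one of the 40 called in both route comparisons in the main edgeR fit. DESeq2 called Mcm5 in both as well, and the fit with the mitochondrial covariate called Mcm5 and Mcm7 in both. It was at 18.9, 22.0, 18.4, 11.1 and 15.3 CPM in topical controls and at 7.28, 8.08, 7.9, 12.4 and 9.6 CPM in systemic controls. Topical cKO mice had 22.8, 14.1, 14.5, 24.7 and 12.8 CPM and systemic cKO mice 9.25, 10.0, 8.93, 10.4 and 10.9 CPM. Of the 10 systemic libraries, 9 lay below the lowest topical library (11.1 CPM, topical control 6), and systemic control 5 was the exception at 12.4 CPM. In controls the level after injection was 1.9-fold lower (log2 difference −0.92, SE 0.20, edgeR adjusted p = 0.00329). In cKO mice it was 1.81-fold lower (−0.86, SE 0.20, adjusted p = 0.00768) and the groups did not overlap. The call stood in both comparisons when any 1 of the 10 libraries was left out, with adjusted p from 0.00143 to 0.0117 in controls and from 0.00441 to 0.0339 in cKO mice.

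The other helicase subunits had smaller differences. Mcm5 was at 19.4, 26.8, 18.8, 12.8 and 16.9 CPM in topical controls and at 10.4, 10.7, 10.8, 16.4 and 14.1 CPM in systemic controls, with overlap. The log2 difference was −0.60 (SE 0.20, edgeR adjusted p = 0.0432), and the call was lost on leaving out any of 8 of the 10 libraries (all but topical control 6 and systemic control 5), with an adjusted p up to 0.145 without topical control 3. In cKO mice Mcm5 had 23.9, 15.7, 14.5, 28.2 and 14.99 CPM against 10.7, 14.8, 12.7, 12.1 and 12.6 CPM, a difference of −0.63 (SE 0.20, adjusted p = 0.0533), which did not pass. It was called lower there by DESeq2, with the filter at a mean of 5 CPM and with the mitochondrial covariate. Leaving out topical cKO 3, 4 or 7 or systemic cKO 4 also gave the call.

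Mcm7 was at 32.8, 24.0, 27.2, 32.7 and 25.6 CPM in topical cKO mice and at 18.7, 23.9, 19.4, 18.9 and 15.8 CPM in systemic cKO mice. No systemic library reached a topical one, although the closest were 23.9 and 24.0 CPM. On the log2 scale the difference was −0.56 (SE 0.15, edgeR adjusted p = 0.0181), and it missed the threshold without topical cKO 5 (adjusted p = 0.0598) or systemic cKO 7 (adjusted p = 0.0536). In controls Mcm7 differed by −0.37 (SE 0.15, adjusted p = 0.0782).

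Mcm2 was at 26.2, 18.2, 25.1, 29.5 and 20.3 CPM in topical cKO mice and at 19.8, 14.5, 13.0, 13.0 and 13.0 CPM in systemic cKO mice. Only systemic cKO 2 overlapped the topical range. Mcm2 differed by −0.71 on the log2 scale (SE 0.20, edgeR adjusted p = 0.0315), a call lost on leaving out topical cKO 2, 4 or 5 or systemic cKO 5, 6 or 7 (adjusted p up to 0.0971, without topical cKO 5). In controls Mcm2 was at 23.1, 28.4, 19.0, 13.9 and 20.3 CPM after topical and 12.2, 16.1, 14.6, 26.6 and 15.5 CPM after systemic treatment, a difference of −0.31 (SE 0.20, adjusted p = 0.309) that became −0.52 without systemic control 5.

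Mcm4 and Mcm6 had small differences by route. Their log2 differences were 0.16 and 0.21 in controls and −0.15 and −0.12 in cKO mice, none past the test. The control values include systemic control 5, highest of its group for both. It was at 31.2 CPM for Mcm4 (the others at 16.6 to 20.9 CPM) and at 67.0 CPM for Mcm6 (the others at 34.9 to 45.4 CPM). Differences without that library are not given for these genes. The 6 subunits are present in equal number in the complex, and their mRNA differences by route ranged here from −0.92 (Mcm3) to 0.21 (Mcm6) in controls and from −0.86 (Mcm3) to −0.12 (Mcm6) in cKO mice. Whether subunits differed from each other was not tested.

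Pcna, the clamp that holds DNA polymerase on its template, was at 37.9, 49.6, 50.9, 36.1 and 40.7 CPM in topical controls and at 33.1, 25.4, 28.4, 41.2 and 24.8 CPM in systemic controls. Systemic controls lay below every topical control in 4 of 5 cases, and systemic control 5 (41.2 CPM) did not. Pcna differed by −0.49 on the log2 scale (SE 0.15, edgeR adjusted p = 0.0296). The call was lost on leaving out any of 5 libraries (topical control 3 or 5, systemic control 3, 4 or 6), with adjusted p up to 0.0857. In cKO mice Pcna was at 55.6, 37.9, 41.2, 44.3 and 37.1 CPM against 33.9, 37.8, 35.6, 32.6 and 28.0 CPM, a difference of −0.37 (SE 0.15, adjusted p = 0.149).

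Ung, the uracil-DNA glycosylase that removes misincorporated uracil behind the fork, had the smallest p of the 40 in cKO mice. It was at 9.56, 10.2, 11.5, 11.3 and 13.2 CPM after topical and at 6.69, 7.26, 5.55, 5.56 and 7.25 CPM after systemic treatment, with a gap between the groups. In all, 3 of the 40 genes (Mcm3, Mcm7 and Ung) had all 5 systemic cKO libraries below all 5 topical ones, against 3.32% of all genes. The log2 difference of Ung was −0.78 (SE 0.17, edgeR adjusted p = 0.00451), or 1.72-fold lower. It stayed called on leaving out each of the 10 libraries (adjusted p from 0.00599 to 0.0178). In controls it was at 9.23, 12.9, 5.6, 9.43 and 8.28 CPM against 7.98, 8.24, 7.77, 7.01 and 6.51 CPM, a difference of −0.28 (SE 0.17, adjusted p = 0.251).

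The nucleotide-making genes did not pass by route. Rrm1 and Rrm2, the subunits of ribonucleotide reductase, differed by −0.25 and −0.12 in controls and by −0.27 and −0.35 in cKO mice. Tyms differed by −0.47 in cKO mice (SE 0.17, edgeR adjusted p = 0.0816) and by 0.14 in controls. Of the licensing and initiation factors, Cdt1 differed by −0.49 in cKO mice (adjusted p = 0.106), Cdc6 by −0.20 and Gins2, a subunit of the active helicase, by −0.09.

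**Figure D4:**
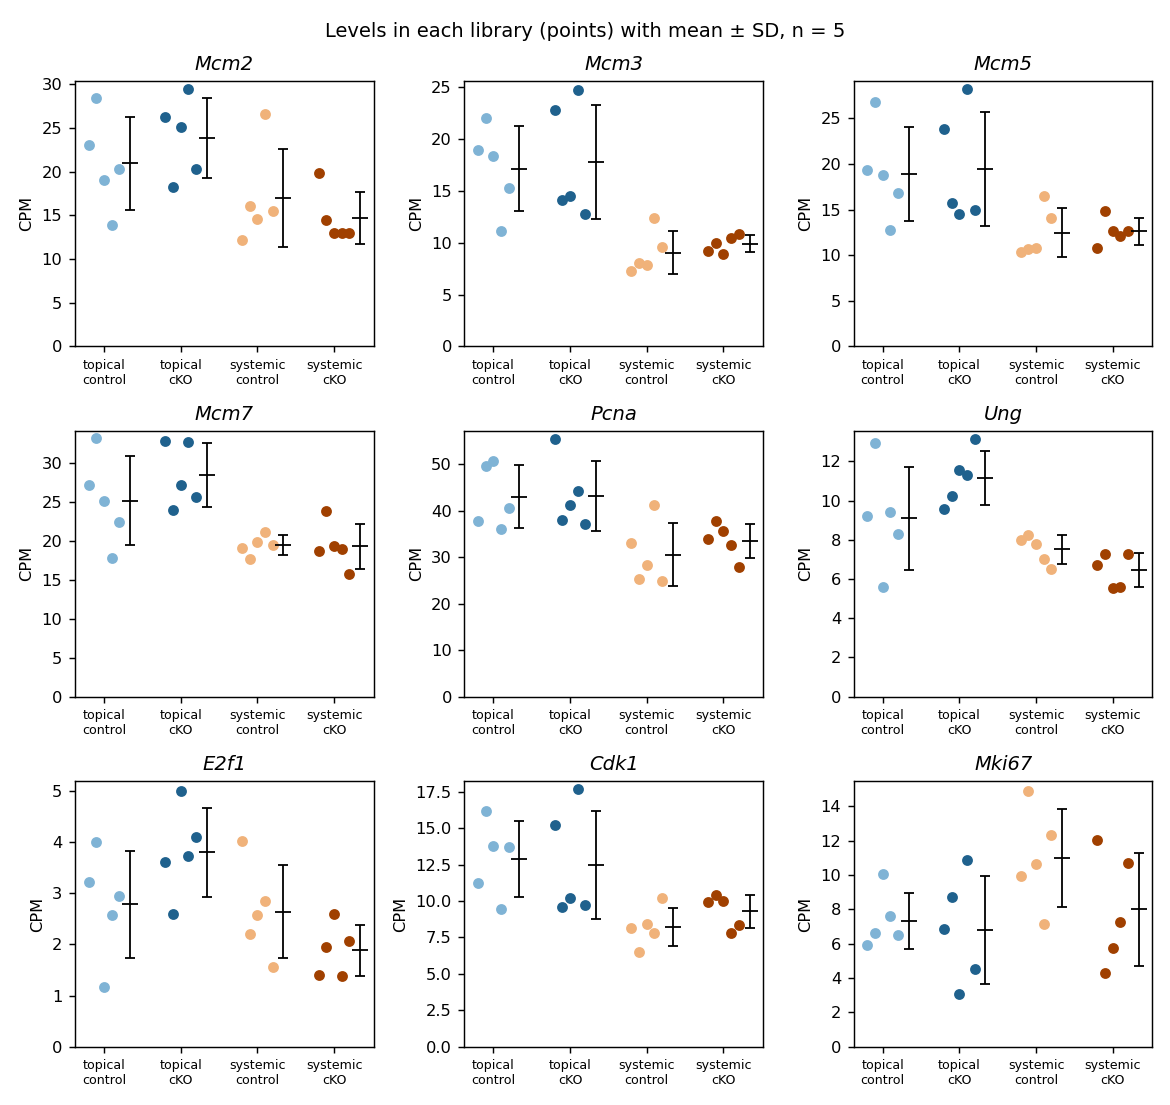
CPM of 9 cell cycle genes in each library (points, in order of number) by group, with the mean and SD of 5 libraries as bars and axes from 0. Mcm3 runs from 11.1 to 24.7 CPM in topical and from 7.28 to 12.4 CPM in systemic libraries, while the ranges of Mki67 overlap in all groups.

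Cdk1, the kinase that drives mitosis, was the only mitotic gene called by route in the main edgeR fit. It was at 11.2, 16.2, 13.8, 9.43 and 13.7 CPM in topical controls and at 8.17, 6.52, 8.43, 7.79 and 10.2 CPM in systemic controls, where only systemic control 6 reached the topical range. The log2 difference was −0.64 (SE 0.18, edgeR adjusted p = 0.0183), and it missed the threshold without topical control 3 (adjusted p = 0.0579) or systemic control 3 (adjusted p = 0.058). In cKO mice Cdk1 was at 15.2, 9.63, 10.2, 17.7 and 9.76 CPM against 9.95, 10.4, 9.98, 7.84 and 8.38 CPM, a difference of −0.43 (SE 0.18, adjusted p = 0.148).

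The other 19 mitotic genes did not pass in either route comparison, and they did not share a sign. Mki67 differed by 0.59 in controls (SE 0.30, edgeR adjusted p = 0.169), which turned to −0.21 with the satellite covariate (adjusted p = 0.991), and by 0.19 in cKO mice (adjusted p = 0.76). Topical controls had 5.9, 6.63, 10.0, 7.64 and 6.5 CPM and topical cKO mice 6.86, 8.71, 3.08, 10.8 and 4.53 CPM, overlapping the systemic values given above. Top2a was at 19.8, 26.8, 39.4, 18.5 and 23.8 CPM in topical and 18.0, 21.4, 22.4, 16.4 and 27.5 CPM in systemic controls, and at 23.5, 22.9, 17.8, 30.7 and 18.5 against 24.8, 17.6, 20.2, 21.9 and 25.1 CPM in cKO mice. Its log2 differences were −0.27 and −0.06, with overlap in both. Birc5, which codes for survivin, had the smallest p of the mitotic genes after Cdk1 in cKO mice, at −0.45 (SE 0.20, adjusted p = 0.169). It was called lower when systemic cKO 4 was left out.

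In G1 and S entry, E2f1, the transcription factor that switches on S phase genes, was lower after injection in cKO mice. It was at 3.6, 2.59, 5.0, 3.73 and 4.09 CPM after topical and at 1.41, 1.96, 2.6, 1.39 and 2.06 CPM after systemic treatment. The groups met at about 2.6 CPM, where 1 library of each lay. E2f1 differed by −0.98 on the log2 scale (SE 0.29, edgeR adjusted p = 0.0324), or 1.97-fold lower, on a low level, and the call was lost on leaving out any of 7 of the 10 libraries (all but topical cKO 3 and systemic cKO 4 and 5), with adjusted p up to 0.0829 without systemic cKO 6. In controls E2f1 was at 3.23, 4.0, 1.16, 2.57 and 2.96 CPM after topical and at 4.02, 2.21, 2.57, 2.86 and 1.56 CPM after systemic treatment. The difference there was −0.11 (adjusted p = 0.825). Ccnd1 and Ccnd2 had differences in cKO mice that did not pass: −0.81 (SE 0.26, adjusted p = 0.0556) for Ccnd1 and −1.08 (SE 0.41, adjusted p = 0.109) for Ccnd2. Ccnd1 was called without topical cKO 7 (−0.94, adjusted p = 0.029) or systemic cKO 6 (−0.99, adjusted p = 0.0282). Topical levels of Ccnd2 were 622, 749, 527, 258 and 348 CPM in controls and 959, 587, 773, 926 and 341 CPM in cKO mice, and its route difference in controls was −0.14, or −0.89 without systemic control 5 (adjusted p = 0.0499). That of Ccnd1 in controls was −0.34, or −0.65 without the same library (adjusted p = 0.0611). Ccnd3 stood the other way, at 0.41 in controls (adjusted p = 0.132) and 0.12 in cKO mice.

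**Figure D5:**
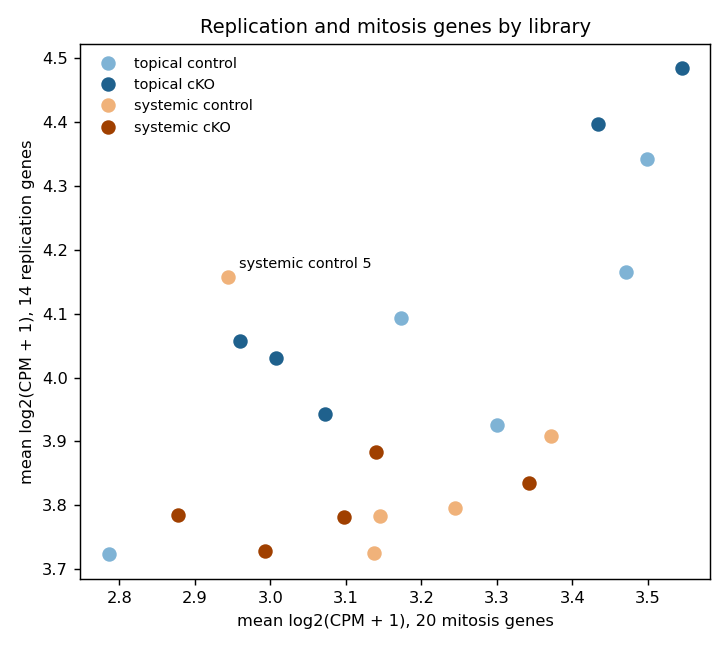
Mean log2(CPM + 1) of the 14 replication genes (vertical) against that of the 20 mitotic genes (horizontal) in each library, coloured by group. Of the 5 systemic controls, 4 lie between 3.73 and 3.91 on the vertical axis, and systemic control 5 lies above them at 4.16 with a lower mitotic mean of 2.94.

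Per library, the mean level of the replication genes, in log2(CPM + 1), was 4.05 ± 0.24 (SD, n = 5) in topical controls, 4.18 ± 0.24 in topical cKO mice, 3.87 ± 0.17 in systemic controls and 3.80 ± 0.06 in systemic cKO mice. All 5 systemic cKO libraries (3.73 to 3.88) lay below all 5 topical cKO libraries (3.94 to 4.48). The mitotic mean overlapped between all groups, at 3.25 ± 0.29, 3.20 ± 0.27, 3.17 ± 0.16 and 3.09 ± 0.17 in the same order. The gap between the 2 means was 0.80 ± 0.14, 0.98 ± 0.09, 0.71 ± 0.29 and 0.71 ± 0.15. Without systemic control 5, the systemic controls had a replication mean of 3.80 ± 0.08 (SD, n = 4), a mitotic mean of 3.22 ± 0.11 and a gap of 0.58 ± 0.05. No p is given for such means, since the genes were chosen with results of these data known.

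Other measures moved with route. In cKO mice the median of mitochondrial reads was 3.56% of counts after topical and 5.28% after systemic treatment, with overlap. With that percent as a covariate, 7 of the 40 genes were called lower by route in cKO mice, where 13.8% of all genes were called. In controls the satellite-like transcripts split the libraries exactly as route did, so the 2 cannot be told apart there. With the satellite split as a covariate, which only systemic cKO 2 then informs, 0 of the 40 genes were called in controls (0.00805% of all genes). Their log2 differences were −0.80 for Mcm3, −0.76 for Cdk1, −0.51 for Pcna and −0.31 for Mcm5, with adjusted p from 0.86 to 0.984. In cKO mice that covariate marks only systemic cKO 2, so the fit amounts to leaving that library out. It kept 4 of the 5 calls (Ung, Mcm3, Mcm7 and Mcm2), where 8.49% of all genes were called, and E2f1 had an adjusted p of 0.0696.

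In cKO mice, markers of cell type moved with route as well. Summed basal markers (Krt5, Krt14, Itga6, Itgb4 and Trp63) were at 72742 to 86221 CPM after topical and 51809 to 67531 CPM after systemic treatment, with no overlap and 0 of 5 genes called. Suprabasal markers were at 13741 to 24036 and 21365 to 34070 CPM, with 1 of 4 called higher (Sbsn). Summed immune markers were at 8.18 to 12.3 and 15.4 to 33.4 CPM, with 0 of 2 tested called. Cd74 (mean 12.8 CPM over the 20 libraries) and Cd52 (0.37 to 3.02 CPM) made up most of that sum and were at 0 in no library, while Ptprc was at 0 in 10 and Cd3e in 12. Red cell markers were at 0.89 to 2.04 and 3.45 to 7.25 CPM, with Hba-a1 called higher. Only 1 of these 5 genes, Hba-a1, passed the filter, and it made up most of the sum (mean 2.50 CPM over the 20 libraries). Hba-a2 averaged 0.29 CPM and the rest less, with Hbb-bs at 0 in 10 libraries and Hbb-bt in 15. In controls 2 markers were called by route, both higher after injection, Hba-a1 and the melanocyte gene Pmel. The summed levels overlapped there, at 0.72 to 3.55 and 1.23 to 6.34 CPM for red cell and at 4.13 to 12.3 and 7.19 to 34.5 CPM for melanocyte markers. Their part in the replication gene values was not tested.

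Further genes of the same pathways were counted in the same fits, where 10.2% of all genes were called higher and 8.16% lower by route in controls, and 5.19% and 4.02% in cKO mice. Of 39 other replication genes, 1 was called higher and 1 lower by route in controls (2.56% in each direction), Slbp (histone mRNA binding; 0.71, edgeR adjusted p = 0.0081) and the clamp loader subunit Rfc5 (−0.34, adjusted p = 0.0409). In cKO mice 2 were lower (5.13%), the chromatin assembly subunit Chaf1b (−0.79, adjusted p = 0.0109) and Uhrf1, which guides maintenance DNA methylation (−0.65, adjusted p = 0.0414), and 35 of the 39 lay below 0 with a median of −0.29. Of 49 other mitotic genes, Cdca2 was higher in controls (1.57, adjusted p = 2.49e-04) and the separase gene Espl1 in cKO mice (0.67, adjusted p = 0.0108), with none lower and medians of −0.05 and −0.10. Of 17 other G1 and S regulators, 1 was called, Tfdp1, the partner of E2F factors, lower in cKO mice (−0.59, adjusted p = 0.00956).

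Brakes on the cycle were called in both directions. Of 16 tested (Cdkn1c and Cdkn2a did not pass the filter), 3 were called higher and 1 lower in controls, and 2 higher and 2 lower in cKO mice, to be read against the shares of all genes just given. Btg2 was higher after injection in both genotypes, at 1.17 in controls (edgeR adjusted p = 0.0104) and 0.97 in cKO mice (adjusted p = 0.0463). The kinase inhibitor gene Cdkn1a (0.89, adjusted p = 0.0174) and Pkmyt1, whose kinase holds Cdk1 inactive (0.46, adjusted p = 0.0423), were higher in controls, and the inhibitor gene Cdkn1b (0.68, adjusted p = 0.0397) in cKO mice. Btg1 was lower in both (−0.83, adjusted p = 0.0188, and −0.75, adjusted p = 0.0471), and Ccng1 in cKO mice (−0.72, adjusted p = 0.0109). By genotype the calls in these lists were 1 brake with topical treatment, the p53 target Ccng1, higher in cKO mice (1.01, SE 0.18, adjusted p = 0.01), and 1 mitotic gene with injection, Cdca2, lower in cKO mice (−1.27, adjusted p = 0.00667). All genes were called at 0.129% and 1.89% in these comparisons. The satellite covariate leaves systemic cKO 2 alone against the controls, so it does not test the call of Cdca2. None of these lists had a call in the interaction.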

How the data were processed

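Counts of reads per gene for the 20 libraries were deposited by the authors as 1 table of whole numbers. Per the submitters' processing notes, STAR and featureCounts were used with build GRCm38 (mm10). Versions and strand settings are not given in the sources used here. Library titles gave each column's group and number, and no column was left unmapped (0). Per the labels, each group held 5 mice, so the spread is between mice.

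Genes were tested with edgeR 4.0.16 (limma 3.58.1, R 4.3.3): filterByExpr (minimum count 10, minimum total 15), TMM scaling, robust quasi-likelihood fit of all 20 libraries with 1 term per group, two-sided tests, and Benjamini-Hochberg adjustment over the 12424 genes kept, called at adjusted p under 0.05. Every adjusted p in the text comes from this fit unless another is named. Member CPM used TMM library sizes, while marker sums and library facts used library totals. Intervals at 95% used 16 degrees of freedom. Depth was 11588851 to 50082771 counts per library, and the number of reads behind a gene limits its precision.

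The 40 genes, the role lists and the other lists were chosen with earlier results of these data known, so lists are described by counts and medians with no test. Values in every library were given for called genes (up to 8 per comparison by adjusted p), the 2 genes of smallest unadjusted p where fewer than 2 were called, and Mki67, Top2a, Pcna, Mcm2, Ccnd1 and Ccnd2. Other pathway genes were named where called, up to 3 per list and direction. Positions and exon lengths came from GENCODE vM21, which held 40 of the 40 genes, and promoters from RefSeq (GRCm38.p6).

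Alternatives were RLE scaling, DESeq2 1.42.0 (Wald test), no filter, a mean of at least 5 CPM, only the libraries compared, a replicate block, sex (from Y-linked genes, split at 5 CPM), satellite-like transcripts split at 50 CPM (11 of 12 listed genes in the table), percent mitochondrial counts, and each library left out.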

Additional observations from a re-analysis of the deposited data

Results flagged for a closer look

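In each group of 5, the highest or lowest library of each gene was set against the others, and it was listed where its gap to the nearest one, over the range of the group, passed Dixon's 95% value of 0.71. Of 160 such groups 8 were listed, or 5%, and chance lists about 1 in 20. All 8 were high libraries of systemic groups.

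Systemic control 5 was high in 3 of them: Ccnd2 at 1195 CPM against 213 to 353 in the other 4 systemic controls, Ccnd1 at 44.1 against 16.4 to 24.4 CPM, and Mcm2 at 26.6 against 12.2 to 16.1 CPM. Systemic control 6 was high for Aurkb, the mitotic kinase aurora B, at 7.56 against 4.96 to 5.36 CPM, and for Tyms at 18.7 against 12.6 to 13.9 CPM.

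In systemic cKO mice, Birc5 was at 6.89 CPM in library 4 against 4.24 to 4.40 CPM. Mcm2 was at 19.8 CPM in library 2 against 13.0 to 14.5 CPM. Ccnd1 was at 39.0 CPM in library 6 against 21.3 to 24.7 CPM.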

How the results depend on the processing

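RLE scaling, no filter, sex as a covariate and DESeq2 kept each count of called genes on the same side as reported, within 1.5 times. With satellite-like transcripts as a covariate the count by route in controls went from 4 to 0, the mitotic median became 0.21 for the systemic genotype comparison, 0.21 for the interaction and −0.45 for route in controls. In controls that covariate is the same split as route, so the fit has little left to estimate it from. By genotype with injection and in the interaction, it leaves systemic cKO 2 alone to stand for the systemic cKO mice. With percent mitochondrial counts as a covariate, 2 genes were called by genotype with injection, where 10.6% of all genes were called. By route in controls 7 were called (6 lower, and Mki67 higher at 0.61, edgeR adjusted p = 0.031), where 28.1% of all genes were. Mki67 by route in controls (adjusted p = 0.0438) and Ccnd2 by route in cKO mice (adjusted p = 0.033) were called when only the libraries compared were fitted, and Ccnd1 by route in cKO mice by DESeq2 (adjusted p = 0.0326). Mcm5 in controls missed the threshold when genes averaging under 5 CPM were dropped (adjusted p = 0.0567). Leaving out 1 library gave 1 to 5 calls by route in controls, 2 to 7 in cKO mice, and 0 in each genotype comparison and the interaction. By route these fits called 11.7% to 20.1% of all genes in controls and 5.97% to 9.69% in cKO mice. Over the values of named genes under the alternatives other than leaving out a library, 342 of 368 kept both direction and side of the threshold, 16 changed side and 10 changed sign, none of them called in either fit. With the satellite covariate the sign turned for Mki67 (0.13 by genotype with injection, 0.21 in the interaction, −0.21 by route in controls and −0.0033 in cKO mice), for Mcm2 (0.23 by genotype with injection and 0.037 in the interaction) and for Ccnd1 by genotype with injection (−0.0028). It turned for Top2a by genotype with injection with the mitochondrial covariate (−0.053) and with the replicate block (−0.056), and for Pcna by genotype with topical treatment with the block (−0.11). Leaving out 1 library changed the sign of 10 differences at least once. By genotype with injection they ranged from −0.10 to 0.40 for Ccnd1, −0.60 to 0.34 for Ccnd2, −0.34 to 0.0034 for Mcm2 and −0.032 to 0.16 for Top2a. With topical treatment they ranged from −0.32 to 0.10 for Mki67, −0.092 to 0.073 for Pcna and −0.31 to 0.031 for Top2a. By route they ranged from −0.89 to 0.051 for Ccnd2 in controls, and in cKO mice from −0.0014 to 0.43 for Mki67 and −0.13 to 0.078 for Top2a.

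Numbers in the library names are shared between groups, and they were not taken as pairs in the main fit. A correlation over 0.1 was found in 2 of 3, 2 of 3, 1 of 4 and 1 of 4 same-numbered pairs. Pairs of different numbers were not measured, so these values cannot decide whether the numbers mark pairs. With the replicate block, 2 genes were called by route in cKO mice (Ung and Mcm3), 3 in controls, and 0 in the other comparisons. All genes were called by route at 7.54% in cKO mice and 17.6% in controls in that fit. The calls of Mcm7 (edgeR adjusted p = 0.0504), Mcm2 (0.0661) and E2f1 (0.0691) in cKO mice and of Mcm5 in controls (0.0621) were lost with the block. Genes below about 3 CPM rest on few reads (Cdc6 on 3 to 50 per library).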
